A study of Arabidopsis thaliana with 4 samples.

Results

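Copper is carried through plant cells by a small set of dedicated proteins. The results given here concern 10 Arabidopsis thaliana genes of that set, taken as the rows of the deposited gene table whose locus identifiers are AT1G76100 (PETE1), AT1G20340 (PETE2), AT1G08830 (CSD1), AT2G28190 (CSD2), AT1G12520 (CCS), AT1G66240 (ATX1), AT3G56240 (CCH), AT5G59030 (COPT1), AT5G20650 (COPT5) and AT4G33520 (PAA1, also called HMA6). All 10 were found among 33539 entries with usable values, and all 10 had a mean of at least 5 FPKM (fragments counted per unit of transcript length and of mapped reads) over the 4 libraries, as did 9761 entries in all. Poly(A) RNA was sequenced from whole seedlings harvested after 5 days of growth on MS medium, without kanamycin or with 50 mg/l. The control line (SALK_064816C) is homozygous for a T-DNA inserted near TRANSPARENT TESTA 4, and the wbc19 mutant line (SALK_107731) is homozygous for a T-DNA in WBC19, which encodes an ABC transporter. Both lines therefore carry the NPTII kanamycin resistance gene of the T-DNA, and each line is 1 insertion. There was 1 library for each of the 4 conditions, labelled control, control + kanamycin, wbc19 mutant and wbc19 mutant + kanamycin. Values are given in this order throughout unless a library is named.

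No comparison between conditions has a replicate, so no test between conditions could be made, and differences are described by size only. A difference is the log2 ratio of FPKM + 1, and a gene is called apart between libraries when that ratio is at least 2-fold. The intervals given are exact Poisson 95% intervals of read numbers estimated from the steps of the FPKM values, and they cover counting error only. The worth of 1 read per kilobase was 1.12, 0.581, 0.702 and 1.17 FPKM, so the libraries labelled control + kanamycin and wbc19 mutant were the deeper ones. Those deeper libraries nevertheless listed fewer entries above 0, namely 11090 and 9013, against 15072 in the cDNA library labelled control and 13217 in the cDNA library labelled wbc19 mutant + kanamycin. Every difference given below, with kanamycin or between the lines, sets a deeper library against a shallower one. Differences by condition therefore cannot be told apart from differences of depth or of listing at 0. WBC19 itself was listed at 0 in both libraries of the control line and was at 3.00 and 2.30 FPKM in those labelled wbc19 mutant and wbc19 mutant + kanamycin, on about 10 and 5 reads. This goes against what a knockout label leads one to look for, although the reads were not placed relative to the insertion, and every direction below is that of the library as labelled.

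Plastocyanin is the soluble copper protein of the thylakoid lumen that passes electrons from the cytochrome b6f complex to photosystem I, and it is the main copper protein of green tissue. Cu/Zn superoxide dismutases, loaded by the chaperone CCS, remove superoxide in the cytosol (CSD1) and the chloroplast (CSD2). COPT proteins bring copper into the cytosol, the chaperones ATX1 and CCH carry it there, and the P-type ATPase PAA1 pumps it into the chloroplast. In Arabidopsis a shortage of copper is known to raise miR398, a microRNA that lowers CSD1, CSD2 and CCS transcripts, under the control of the transcription factor SPL7. The iron dismutase FSD1 is known to rise in their place.

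The sequences of miR398 and of its best matching windows in the 3 known target transcripts are shown because these transcripts are the part of the copper set with a shared regulator. In RefSeq's annotation of TAIR10.1 the mature miR398a-3p lies on the plus strand at chr2:1041012-1041032, miR398b-3p at chr5:4691107-4691127 and miR398c-3p at chr5:4694778-4694798, both also on the plus strand. The seed, bases 2 to 8, is in capitals and is the same in all 3.
miR398a-3p: uGUGUUCUcaggucaccccuu
miR398b-3p: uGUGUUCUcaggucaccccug
miR398c-3p: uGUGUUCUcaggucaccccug
The windows below are read from the spliced transcripts, with the bases that face the seed in capitals.
CSD1: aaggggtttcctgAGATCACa
CSD2: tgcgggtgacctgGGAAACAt
CCS: attgggagacctgGGAACACt
The CSD1 window lies in the 5′ UTR across the junction of exons 1 and 2, on the plus strand of chr1:2827177-2827685 with the intron between. It pairs 18 of its 21 bases with miR398a-3p. A mismatch was scored as 1 and a G:U pair as 0.5. On this score only 2 of 37880 annotated genes, CSD1 itself included, had a window at least this good. With miR398b-3p or miR398c-3p 17 bases pair, and 11 genes did as well. Each such count is for a single form of miR398, while the form shown is the best for that transcript. The CCS window is in the coding part of exon 5, on the minus strand of chr1:4267521-4267541. It pairs 16 bases with miR398a-3p, and 0.174% of genes had a window at least as good. With miR398b-3p or miR398c-3p it pairs 15 bases, and that share was 1.38%. The CSD2 window is in the coding part of exon 4, on the plus strand of chr2:12015572-12015592. It pairs 13 bases with miR398b-3p without a bulge, 3 of them in the seed, against 6 in the CSD1 and CCS windows. Under this ungapped scoring 10.6% of genes did as well, PETE1 among them. PAA1 scored better with miR398a-3p, at 6.0 against 6.5, with 7 seed bases paired. Poly(A) libraries of this kind measure neither mature miRNAs nor cleavage. The MIR398A and MIR398C entries were listed at 0 in every library.

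The 2 plastocyanin genes had very different levels and very different spreads. PETE2, the more abundant, was at 1457, 1407, 1196 and 1810 FPKM, on an estimated 959 to 1780 reads. The cDNA library labelled wbc19 mutant + kanamycin was the highest and that labelled wbc19 mutant the lowest, a span of 1.51-fold, and no comparison of PETE2 reached 2-fold. Counting intervals ran from 1366 to 1552, 1343 to 1474, 1130 to 1264 and 1706 to 1919 FPKM, so only the libraries labelled control and control + kanamycin overlapped.

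PETE1 was at 32.4, 179, 76.2 and 67.0 FPKM. Its value in the cDNA library labelled control + kanamycin stood far above the others and its value in the cDNA library labelled control below them, a span of 5.51-fold. The log2 difference with kanamycin was 2.43 in the control line and −0.18 in the mutant line. The difference of the mutant from the control line was 1.21 without kanamycin and −1.40 with it. As a share of the summed FPKM of both plastocyanin genes, PETE1 made up 2.18%, 11.3%, 6.0% and 3.57%. Because PETE2 carried nearly all of the sum, total plastocyanin varied only between 1272 and 1877 FPKM. The PETE1 entry was deposited with a locus that also spans 10 other annotated genes' entries, among them AT1G76070 at 2.31 and 64.4 FPKM in the libraries labelled control and control + kanamycin, and ATCDSP32 at 176 and 104 FPKM. Part of the PETE1 value may therefore depend on how the assembly divided this stretch, which was not tested. The coding sequences of PETE1 and PETE2 are 75% identical over 503 aligned bases, and their transcripts share 0 words of 36 bases, the read length that was kept. Since the authors' alignment tolerated mismatches, such exact words, here and below, do not show that each read could be assigned to a single gene.

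**Figure D1:**
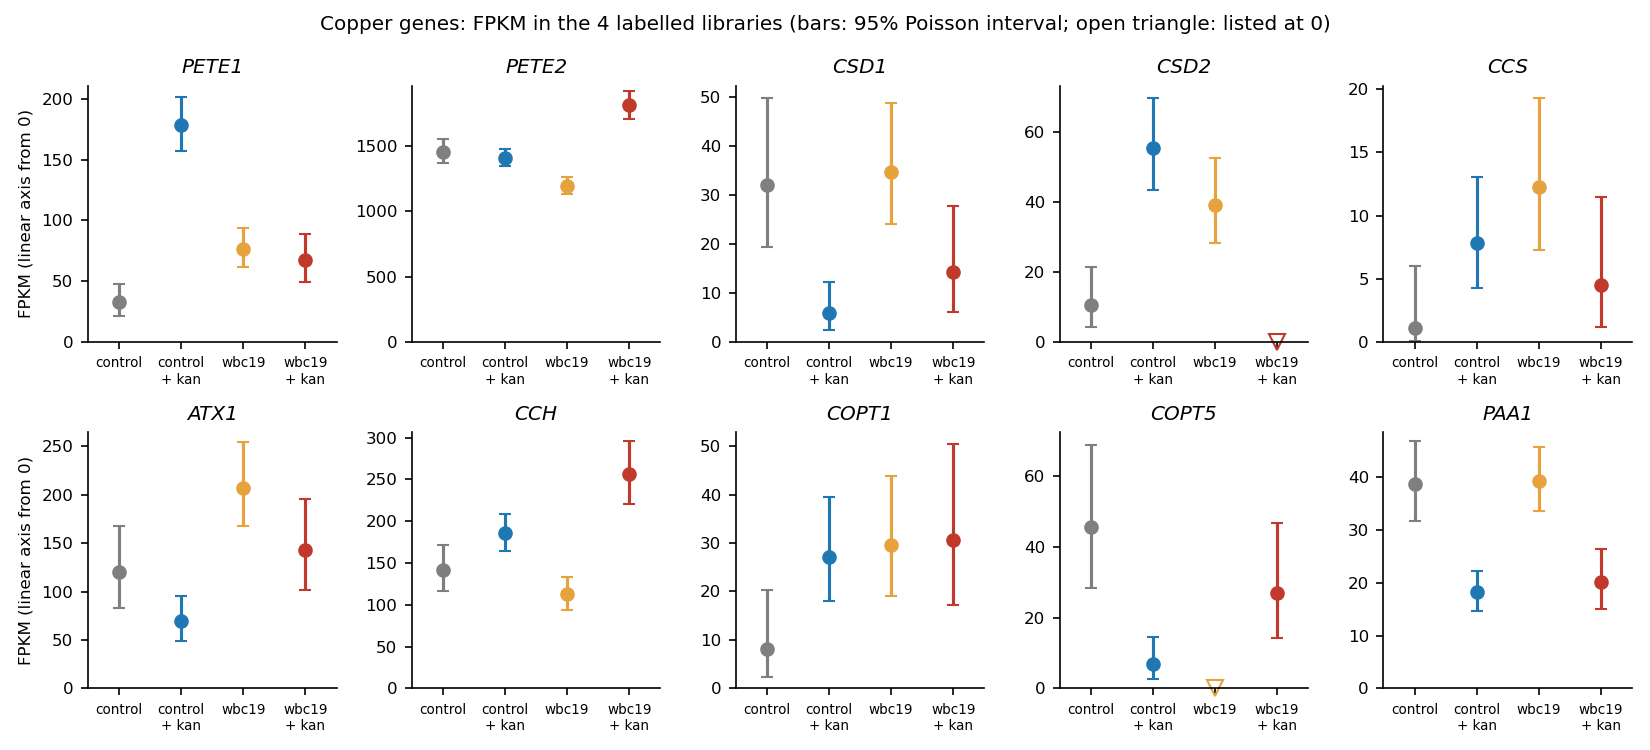
FPKM of the 10 copper genes (linear vertical axes from 0, a different scale for each gene) in the 4 labelled libraries, 1 point per library, where kan stands for kanamycin. Bars are exact Poisson 95% intervals of the estimated reads and cover counting error only, and open triangles mark CSD2 and COPT5 where they were listed at 0. PETE1 reaches 179 FPKM in the cDNA library labelled control + kanamycin, while PETE2 stays between 1196 and 1810 FPKM.

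The partners of plastocyanin in electron transfer did not share the spread of PETE1. PETC, the Rieske protein of the cytochrome b6f complex, was at 631, 669, 1169 and 644 FPKM. PSAF and PSAN, photosystem I subunits on the lumen side that take part in docking plastocyanin, were at 1069 to 1701 and 853 to 1428 FPKM. None of the 3 partners measured reached 2-fold in any comparison. Of genes with means of 1000 FPKM or more, as PSAF and PSAN have, 22.2% to 36.1% were apart by the same rule, and at 200 to 1000 FPKM, where PETC lies, 18.6% to 27.5%.

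The 2 dismutases of the copper set ran opposite to each other with kanamycin in the control line. CSD1 was at 32.0, 5.87, 34.7 and 14.2 FPKM, on an estimated 19, 7, 33 and 8 reads. Both libraries of kanamycin-grown seedlings were below both others, with log2 differences of −2.26 in the control line and −1.24 in the mutant line. The counting intervals were apart in the control line, 2.32 to 12.2 FPKM with kanamycin and 19.3 to 49.8 without, and overlapped in the mutant line. Of the 9761 genes above the limit, 14.9% had both kanamycin libraries below both others, and PAA1 was the only other copper gene among them.

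CSD2 was at 10.5, 55.4 and 39.0 FPKM in the libraries labelled control, control + kanamycin and wbc19 mutant, on an estimated 7, 73 and 43 reads, and was listed at 0 in that labelled wbc19 mutant + kanamycin. The difference with kanamycin in the control line was 2.29, and the difference between lines without kanamycin was 1.80, both with counting intervals apart. No fold is given against the listing at 0. Such listings were common, since of genes at 20 to 50 FPKM in the mean of the other 3 libraries 5.5%, 15.1%, 21.4% and 8.8% were listed at 0 in the remaining one. CSD2 made up 24.8%, 90.4% and 52.9% of the summed FPKM of CSD1 and CSD2 in the first 3 libraries. The coding sequences of CSD1 and CSD2 are 67.9% identical over 458 aligned bases, and their transcripts share 0 words of 36 bases.

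CCS, the chaperone that loads both dismutases, had the lowest mean of the 10 genes, and was the lowest within a library only in that labelled control. It was at 1.08, 7.80, 12.2 and 4.46 FPKM, on an estimated 1, 14, 18 and 4 reads. The cDNA library labelled control was the lowest. The ratio to it was 7.21 (interval of the ratio 1.11 to 308) in the cDNA library labelled control + kanamycin. It was 11.3 (1.78 to 471) in that labelled wbc19 mutant, so a single read sets the size of both. The counting intervals of the values themselves, as used elsewhere here, overlapped that of control in the former and were apart from it in the latter. With kanamycin in the mutant line the log2 difference was −1.28, with overlapping intervals.

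The transcripts that miR398 is known to target did not lie on one side in every comparison. With kanamycin in the control line CSD1 was lower, and CSD2 and CCS were higher, by at least 2-fold. Of all genes, 30.8% were lower and 26.6% higher there. Between the lines without kanamycin CSD2 and CCS were higher in the mutant by that rule, as were 23.9% of genes, while CSD1 differed by 0.12. On kanamycin CSD1 was higher in the mutant and CSD2, listed at 0 there, lower, while CCS differed by −0.69. With kanamycin in the mutant line CSD1, CCS and CSD2 were all lower, as were 27.1% of genes. The intervals of CSD1 and CCS overlapped there, and CSD2 was listed at 0. The iron dismutase FSD1 was far more abundant than both Cu/Zn enzymes, at 416, 331, 607 and 391 FPKM, and reached 2-fold in no comparison. Its ratio to the sum of CSD1 and CSD2 was 9.78, 5.41, 8.23 and 27.6, the last with CSD2 listed at 0.

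**Figure D2:**
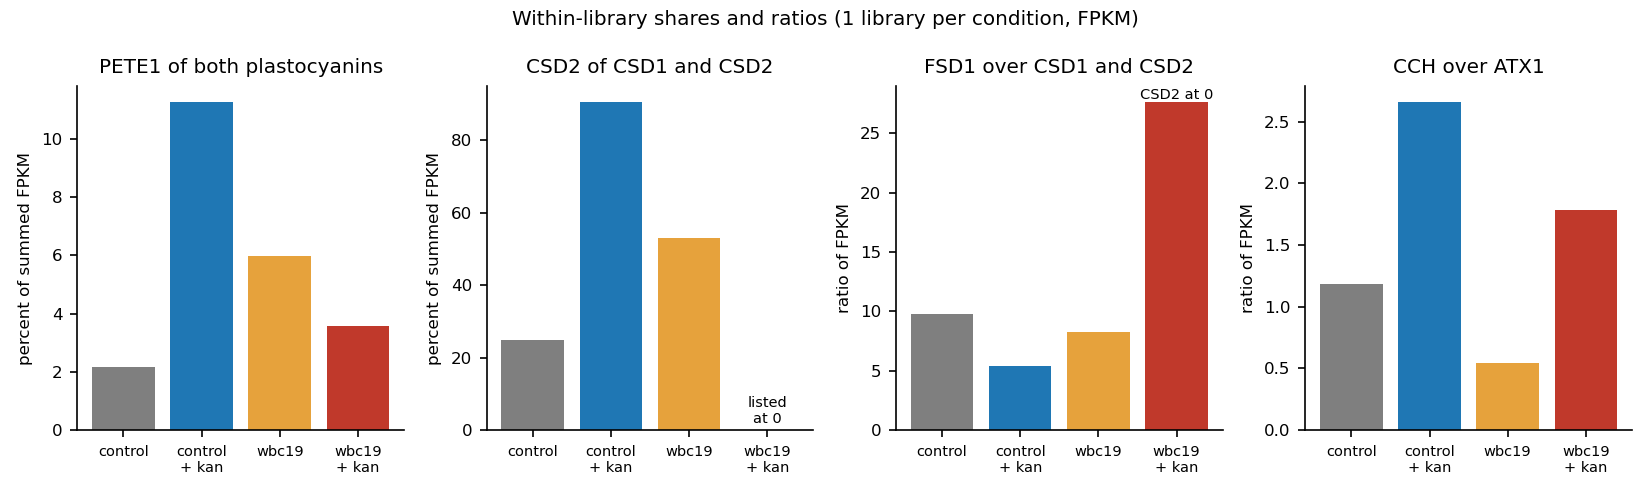
Shares and ratios computed within each labelled library from FPKM, 1 bar per library, with all vertical axes from 0 and no replicate. The share of PETE1 in both plastocyanins runs from 2.18% to 11.3%, and the ratio of CCH to ATX1 from 0.541 to 2.66.

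Other dismutases followed no common course. MSD1, the mitochondrial manganese enzyme, was at 109, 101, 185 and 78.1 FPKM, with a difference of at least 2-fold only between the mutant libraries. FSD3, a chloroplast iron enzyme, was at 46.1, 25.5, 42.2 and 2.34 FPKM, with its low value in the cDNA library labelled wbc19 mutant + kanamycin, where CSD2 was listed at 0. FSD2, its partner in the chloroplast, was at 17.9 and 2.51 FPKM in the libraries labelled control and wbc19 mutant + kanamycin and was listed at 0 in the others. CSD3, the peroxisomal Cu/Zn enzyme, was at 10.2, 19.998 and 21.1 FPKM and was listed at 0 in the cDNA library labelled wbc19 mutant.

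The cytosolic chaperones ATX1 and CCH were, after PETE2, the most abundant of the copper genes over the 4 libraries, with means of 135 and 174 FPKM. ATX1 was at 120, 69.8, 208 and 143 FPKM, on an estimated 34, 38, 93 and 38 reads. Both libraries of the mutant line were above both of the control line, as they were for 12.4% of genes and for COPT1. Of the copper genes 0 had both mutant values below both control values, against 19.8% of all genes. The difference between the lines was 0.79 without kanamycin, with overlapping counting intervals, and 1.03 with it, with intervals of 49.3 to 95.8 and 102 to 196 FPKM.

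CCH, a chaperone with an extension beyond the ATX1-like domain, was at 142, 185, 112 and 256 FPKM, on an estimated 106, 265, 133 and 181 reads. Both libraries from kanamycin were above both others, as they were for 15.1% of genes, with differences of 0.38 in the control line and 1.18 in the mutant line. Only the latter reached 2-fold, with intervals of 220 to 296 and 94.1 to 133 FPKM. The order of the 2 chaperones turned within the series. CCH exceeded ATX1 by 1.19-fold, 2.66-fold and 1.79-fold in the libraries labelled control, control + kanamycin and wbc19 mutant + kanamycin, and the ratio was 0.541 in that labelled wbc19 mutant. In the cDNA library labelled control their intervals overlapped, and in the other 3 they were apart. Their coding sequences are 80.1% identical over the 231 bases that align, and their transcripts share 0 words of 36 bases.

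COPT1, the high-affinity transporter of the plasma membrane, was at 8.20, 27.2, 29.6 and 30.7 FPKM, on an estimated 4, 27, 25 and 15 reads. The cDNA library labelled control was low and the counting intervals of the other 3 overlapped each other and, narrowly, that of the cDNA library labelled control (2.37 to 20.4 FPKM). With PETE1 and CCS, COPT1 was 1 of 3 copper genes at least 2-fold lower in the cDNA library labelled control than in each of the others, which held for 4.13% of all genes. These 3 genes rested on an estimated 25, 1 and 4 reads in that library.

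COPT5, which moves copper out of the vacuole, was at 45.4, 6.79 and 27.0 FPKM in the libraries labelled control, control + kanamycin and wbc19 mutant + kanamycin, and was listed at 0 in that labelled wbc19 mutant. The difference with kanamycin in the control line was −2.58, with intervals of 2.57 to 14.5 and 28.5 to 68.8 FPKM. With kanamycin the mutant line was higher by 1.85, with overlapping intervals. COPT5 is the copper gene most exposed to the counting of reads, since 37.4% of its words of 36 bases also occur in AT5G20640 or in the noncoding RNA AT5G03185, which overlap it on the other strand, and whether the counting used strand is not given in the sources used here. AT5G20640 was listed at 0 in all 4 libraries. CSD1 shares 0.689% of its words with an overlapping neighbour, and the other 8 copper genes share 0 with any gene.

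PAA1, the copper pump of the chloroplast envelope, had the most regular pattern of the set. It was at 38.7, 18.2, 39.3 and 20.2 FPKM, on an estimated 106, 95, 171 and 52 reads. The 2 lines had nearly equal values on each medium, and both kanamycin values were lower. The differences with kanamycin were −1.05 in the control line and −0.93 in the mutant line, the first past 2-fold and the second short of it, and the counting intervals were apart in both lines. The differences between the lines were 0.02 without kanamycin and 0.14 with it.

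The pump that follows PAA1 in the same route did not share this pattern. PAA2, which moves copper from the stroma into the thylakoid lumen for plastocyanin, was at 20.1, 2.59, 33.0 and 21.2 FPKM, and was low in the cDNA library labelled control + kanamycin, the library in which PETE1 was highest. RAN1, which supplies copper to ethylene receptors, was at 8.74, 11.5, 32.4 and 12.4 FPKM, with its high value in the cDNA library labelled wbc19 mutant. COPT6 was at 9.60, 35.8, 25.9 and 14.6 FPKM. COPT2 was at 23.3 FPKM in the cDNA library labelled control + kanamycin and was listed at 0 in the other 3.

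With kanamycin in the control line, 4 of the 10 copper genes were at least 2-fold higher (PETE1, CSD2, CCS and COPT1) and 3 were lower (CSD1, COPT5 and PAA1). Among all 9761 genes 57.4% were apart by the same rule, 26.6% higher and 30.8% lower, so that a difference of this size was common and the count of 7 is read as a description only. Of the 7667 genes above 0 in both libraries, as all 10 copper genes were here, 49.7% were apart. In the comparisons below that share was 49.8%, 51.7% and 52.9%, beside 4 of 9, 4 of 9 and 3 of 8 copper genes. The median difference was 0.17 over the 10 genes and −0.00 over all genes. Counting intervals were apart for 5 of the 10.

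Between the lines without kanamycin, 4 copper genes were higher in the mutant (PETE1, CSD2, CCS and COPT1) and COPT5, listed at 0 there, was lower, against a background of 61%, with 23.9% higher and 37.2% lower. The median difference was 0.45 over the copper genes and −0.28 over all genes, and it was 0.79 without COPT5. Every comparison shares a library with others, this one and the last that labelled control, so their values are not independent of each other. Scaling the libraries by their upper quartiles moved the median of all genes here from −0.28 to −0.14, and scaling by median ratio moved that of the mutant line with and without kanamycin from 0.08 to 0.20.

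Between the lines on kanamycin, CSD1, ATX1 and COPT5 were higher in the mutant and PETE1 and CSD2, the latter listed at 0, were lower, against a background of 59.4%, with 29% higher and 30.4% lower. Medians were 0.27 for the copper genes and 0.00 for all genes. With kanamycin in the mutant line, CCH and COPT5 were higher and CSD1, CSD2 and CCS were lower, against a background of 62.8%, with 35.7% higher and 27.1% lower. Medians were −0.36 and 0.08, and 2 of these 5 calls, CSD2 and COPT5, rest on a listing at 0.

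**Figure D3:**
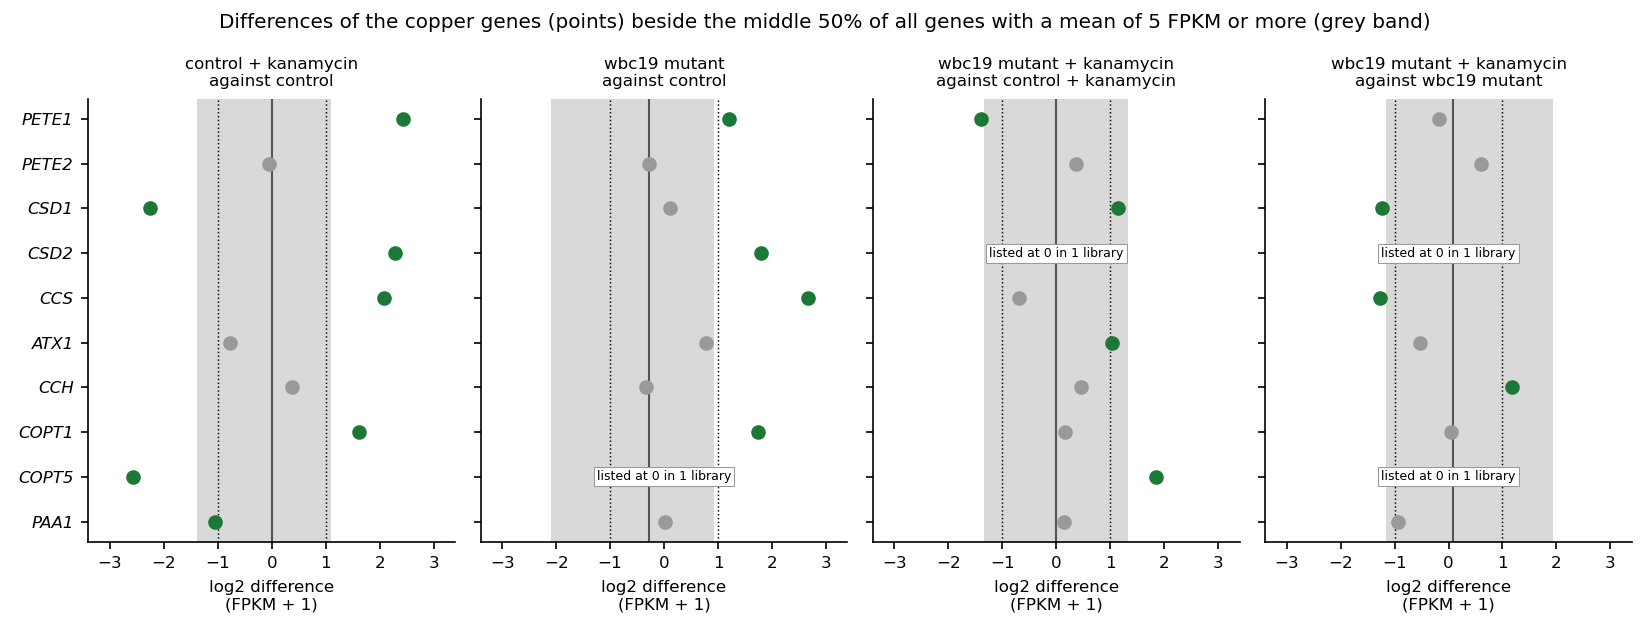
Log2 differences of FPKM + 1 for the 10 copper genes in the 4 comparisons of labelled libraries. Points are single genes, green where at least 2-fold (dotted lines) and grey otherwise, the grey band holds the middle 50% of all 9761 genes and the solid line is their median. In the first panel the band runs from −1.39 to 1.10 and 6 copper genes lie beyond it.

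The background depended on the level of a gene. Of genes with a mean of 5 to 20 FPKM, where CCS and COPT5 lie, 64.1% to 68.8% were apart, depending on the comparison. At 20 to 50 FPKM, the level of CSD1, CSD2, COPT1 and PAA1, the range was 55.9% to 61.3%. At 50 to 200 FPKM, the level of PETE1, ATX1 and CCH, it was 36.9% to 46.1%.

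**Figure D4:**
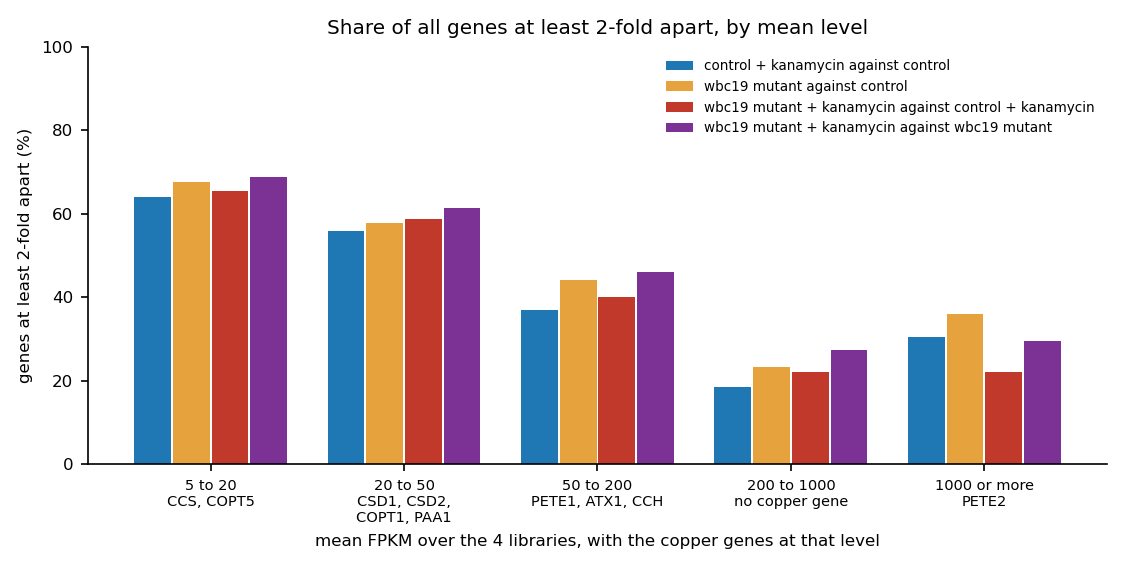
Percentage of all genes at least 2-fold apart (vertical axis, from 0) by mean FPKM over the 4 libraries (horizontal axis, with the copper genes of each level), 1 bar per comparison of labelled libraries. The share is 64.1% to 68.8% at 5 to 20 FPKM and 18.6% to 27.5% at 200 to 1000 FPKM.

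Of 52 genes on 8 lists of copper function that hold none of the 10, 50 had a usable value and 29 had a mean of at least 5 FPKM. Of these 29, 6 were higher and 7 lower with kanamycin in the control line, and 6 were higher and 4 lower in the mutant without kanamycin. On kanamycin 9 were higher and 7 lower in the mutant, and with kanamycin in the mutant line 7 were higher and 8 lower. Medians over the 29 were 0.11, 0.02, −0.05 and −0.56. In each comparison the share of list genes apart, between 10 and 16 of 29, did not exceed the share over all genes.

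Of 5 other chaperones, which serve copper delivery in mitochondria, 3 had a mean of 5 FPKM or more. COX17 was at 34.2, 143 and 32.6 FPKM and was listed at 0 in the last library, and its deposited locus also holds MT3. AT1G53030, described in the deposited table as complementing yeast cox17, was at 12.5, 24.1 and 2.74 FPKM and was listed at 0 in the cDNA library labelled wbc19 mutant. AT1G02410, of the Cox11 family, was at 3.403, 14.6 and 5.57 FPKM and was listed at 0 in the last library. These 3 had their highest value in the cDNA library labelled control + kanamycin. HCC1 was listed at 0 there and was at 3.97 FPKM in that labelled wbc19 mutant + kanamycin, and HCC2 was listed at 0 in all 4.

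Of 11 other copper enzymes and blue copper proteins, 4 had a mean of 5 FPKM or more. The ascorbate oxidases AT5G21100 and AT5G21105 were at 12.1 and 17.2 FPKM in the cDNA library labelled control, at 11.2 and 17.9 in that labelled wbc19 mutant and at 5.95 and 16.7 in that labelled wbc19 mutant + kanamycin. Both were listed at 0 in the cDNA library labelled control + kanamycin. So was AT3G15640, described as having cytochrome-c oxidase activity, which was at 25.7, 73.8 and 41.4 FPKM in the others. UCC2, a uclacyanin, which is a blue copper protein of the cell surface, was at 9.46, 5.88, 1.80 and 58.4 FPKM. Below the limit, the laccase LAC3 was at 3.5999 and 5.72 FPKM in the cDNA libraries labelled control and control + kanamycin and was listed at 0 in both others.

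Of 10 regulators of the response to copper shortage and genes that respond to it, 9 had a value and 3 had a mean of 5 FPKM or more. SPL7 was at 8.00, 5.38, 3.63 and 15.0 FPKM. FRO3, a metal reductase, was at 8.57, 32.6, 3.93 and 16.9 FPKM. Both its kanamycin values were the higher ones, as they were for 15.1% of all genes. ZIP2, a metal transporter described as regulated by copper, was at 3.36, 23.8 and 1.14 FPKM in the libraries labelled control, wbc19 mutant and wbc19 mutant + kanamycin and was listed at 0 in the remaining one.

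Metallothioneins are small proteins that bind surplus copper, and their 5 genes had means from 73.7 to 1390 FPKM. MT1A was at 922, 1358, 2216 and 1065 FPKM and MT2B at 1411, 1522, 1020 and 1173 FPKM. MT1C, the least abundant of the 5, was at 142, 34.7, 85.1 and 33.1 FPKM. Both its kanamycin values were below the others, as they were for 14.9% of all genes. MT2B and the other 2 genes of the list reached 2-fold in no comparison. Among the ethylene receptors, which hold copper, ERS1 was at 8.52, 43.3, 6.53 and 18.8 FPKM and EIN4 at 1.80, 3.03, 7.80 and 9.15 FPKM.

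The order of levels among the copper genes was stable at the top. PETE2 was first in all 4 libraries, with an interval apart from that of the second. CCH was second in 3 libraries and ATX1 in that labelled wbc19 mutant. Below the first 3 genes of the cDNA library labelled control, no neighbours in the order, from COPT5 at 45.4 to CCS at 1.08 FPKM, had intervals apart.

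Genes with patterns most like those of the 4 most abundant copper genes were sought among 3701 genes averaging 20 FPKM or more, by the root mean square difference of their centred log2 values over 4 libraries, which many genes match by the small number of points. For PETE2 the nearest were AT1G73885 (0.02), CAB3, a chlorophyll a/b-binding protein, at 1213, 1158, 1023 and 1449 FPKM (0.03), and AT4G16980, of the arabinogalactan-protein family (0.05), and 94 genes lay within 0.2. For CCH they were PTAC13 (0.05), AT3G61870 (0.06) and AT2G05310 (0.07), and for ATX1 an aquaporin listed as PIP2 (0.07), ATLFNR2, a ferredoxin:NADP(H) oxidoreductase (0.08) and NIR1, nitrite reductase (0.08). For PETE1 they were AT1G67785 (0.05), AT2G44210 (0.07) and AT3G56050 (0.12). Among the copper genes themselves the closest pair was PETE2 and CCH, at 0.26.

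In the promoters, taken as 250 bases before to 50 after the annotated gene start in TAIR10.1, the letters GTAC, the core recognised by SPL7 and the same on both strands, occurred in 4 of the 10 copper genes and in 39% of 27443 protein-coding genes. CCH had 4 copies, as many as or more than all but a few promoters, since 0.397% held at least that many. CSD1 had 2 copies, and CCS and PAA1 had 1 each. A match is a string of letters and not a bound site.

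Markers of root and shoot were read beside these values, since the seedlings were harvested whole and fewer cells of a type cannot be told apart from less RNA per cell. The 5 green shoot markers (RBCS1A, RCA, CA1, PSAF and PSBO1) summed to 14851, 11841, 17810 and 12973 FPKM, and 0 of 5 reached 2-fold in any comparison. The 8 root markers summed to 944, 671, 1299 and 511 FPKM, nearly all of it PYK10 at 910, 605, 1299 and 496 FPKM, and 3, 4, 7 and 3 of the 8 were listed at 0, EXPA7 in every library. PYK10 was lower with kanamycin in both lines, as CSD1, PAA1 and MT1C were. LRX1 was higher with kanamycin in both lines, at 0.751 and 41.8 FPKM in the control line and listed at 0 and at 5.19 FPKM in the mutant line. RCI3 was at 18.5 and 16.7 FPKM in the control line and listed at 0 and at 2.41 FPKM in the mutant line. The root markers thus had no common direction with kanamycin. Between the lines on kanamycin the root markers above the limit, LRX1 (−2.79), RCI3 (−2.38) and PYK10 (−0.29), were lower in the mutant. Below the limit, COBL9 was lower there too, while EXPA18 and TIP2;3 were higher. The part of root share in the values of the copper genes was not tested.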

How the data were processed

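Reads of 4 libraries, 1 per condition, were clipped by the authors, aligned to TAIR10 with TopHat2 2.0.5, assembled with Cufflinks 2.0.2 and quantified with Cuffdiff 1.3.0. The deposited table gives 1 FPKM value per gene and library. It also holds the authors' own comparisons (log2 fold changes, p-values, q-values and a test status), which were not used. Of 33624 entries, 7 had no value and 78 had copies that differed, and these were left out; 0.01 was read as 0. The 10 genes and all lists were chosen with earlier results of these data known.

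Log2 differences used a pseudocount of 1 and genes averaging 5 FPKM or more. With 1 library per condition nothing was tested. Replicates being absent, p-values were not computed. Reads were estimated from FPKM steps over 17875 genes with 1 annotated transcript of 500 to 6000 bases, after subtraction of an assumed 200 bases; of values of 0.5 to 2.5 reads, 74.8% to 83.2% lay within 0.2 of a whole number. Named genes were the 10, those of each copper list that were at least 2-fold apart in any comparison or among the 2 most abundant, and the 3 nearest patterns of the 4 most abundant copper genes. PETC, MT3, MIR398A, MIR398C, HCC1, HCC2, LAC3 and genes sharing a locus with a copper gene were named outside this rule, after their values were seen. Deposited loci were set against RefSeq's TAIR10.1 annotation, where 32719 of 32720 entries with a locus tag lay in place. miR398 windows were scored over spliced transcripts without gaps. Alternatives were other pseudocounts, scalings, limits, folds and fragment lengths. The 2-fold rule and the estimate of FPKM steps were tested on simulated data, with libraries of equal depth and counting error only. The other procedures were not. Python 3.11.15, numpy 2.4.6, pandas 2.3.3, scipy 1.17.1, Biopython 1.88 and matplotlib 3.10.9 were used.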

Additional observations from a re-analysis of the deposited data

Results flagged for a closer look

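For 3 of the 10 copper genes, CSD2, CCS and COPT5, the difference with kanamycin was past the 2-fold rule on FPKM + 1 in both lines. Its direction was opposite in the lines, which held for 18.6% of all genes. In the mutant line the calls of CSD2 and COPT5 rest on a listing at 0, and the counting intervals of CCS overlapped in both lines. With 1 library per condition this difference between the lines was not tested. CSD2 and CCS were higher, and COPT5 lower, in both deeper libraries, labelled control + kanamycin and wbc19 mutant, than in both others. The opposite directions therefore cannot be told apart from the depth of the libraries. For CSD2 the log2 difference was 2.29 in the control line, and the gene was at 39.0 FPKM in the cDNA library labelled wbc19 mutant and listed at 0 in that labelled wbc19 mutant + kanamycin. For CCS it was 2.08 in the control line and −1.28 in the mutant line, on 1 to 18 estimated reads a library. For COPT5 it was −2.58 in the control line, and the gene was listed at 0 in the cDNA library labelled wbc19 mutant and at 27.0 FPKM with kanamycin.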

How the results depend on the processing

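No paired analysis was possible because each condition has 1 library. The number of copper genes at least 2-fold apart fell from 5 to 3 with a limit of 20 FPKM, and to 2 at 4-fold, both between the lines without kanamycin and with kanamycin in the mutant line. Between the lines on kanamycin it fell from 5 to 3 with a pseudocount of 5 and to 1 at 4-fold. With kanamycin in the mutant line it was 3 without genes listed at 0, an alternative chosen after seeing the data. Of 36 differences with both values above 0, 0 changed direction past 2-fold under any pseudocount or scaling. COPT1 in the mutant line changed sign near 0, from 0.05 to −0.05, with upper-quartile scaling. A pseudocount of 5 took 4 below 2-fold: PAA1 with kanamycin in the control line (−0.92), CSD1 (0.82) and ATX1 (0.99) between the lines on kanamycin, and CCS in the mutant line (−0.87). Upper-quartile scaling took PAA1 in the mutant line past it (−1.03). The median number of estimated reads per value was 38.1, and 47.1 or 47.6 with 0 or 35 bases subtracted. Genes on fewer than about 10 reads (CCS, COPT1, CSD1, CSD2 and COPT5 in some libraries) are limited by depth.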
